A study of Mus musculus with 12 samples.

Results

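The 10 genes described here encode enzymes of glycolysis: Hk2, Hk3, Gpi1, Pfkl, Aldoa, Pgk1, Eno1, Eno3, Pkm and Ldha. They were picked as a pathway with earlier results of these data known, and mouse symbols matched them to 11 Ensembl rows among the 56953 genes of the tables. The additional row is a second Aldoa identifier, ENSMUSG00000114515, which held 0 to 17 counts per library and was left aside. Polyadenylated RNA had been sequenced from myeloid cells sorted from the bone marrow of 8-week-old female C57BL/6J mice, in 12 libraries that form 4 groups of 3. Per the study's methods, the mice were Rank cre/+;R26.eYFP fl/+ animals, in which Cre made from the Rank gene permanently marks a lineage of embryonic origin with the fluorescent protein eYFP. eYFP+ macrophages are therefore labelled as embryonic and eYFP- macrophages as derived from adult hematopoietic stem cells, and both were sorted as F4/80hi cells that carry CD206 and VCAM1. The other groups are Ly6Chi and Ly6Clo monocytes, which differ in surface Ly6C. Whether the libraries of a group came from separate mice is not stated, so p-values measure the spread between these libraries, which may be technical.

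Glycolysis splits glucose into pyruvate in the cytosol and yields ATP and NADH. Hexokinases trap glucose in the cell, phosphofructokinase commits it to the pathway, enolase and pyruvate kinase carry out the last steps, and lactate dehydrogenase turns pyruvate into lactate. Most steps can be run by several isozymes from different genes. Enolase is a dimer of subunits from Eno1 (alpha, widely expressed), Eno2 (gamma, known from neurons) or Eno3 (beta, known from skeletal muscle). In monocytes and macrophages, glycolysis is best known for its increase on inflammatory activation.

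Total counts ran from 26390927 to 48618187 per library. Marker genes went with the labels: the summed normalized counts of 5 macrophage markers (Adgre1, Mrc1, Vcam1, Cd5l, Mertk) were 835592 to 1432737 in macrophage libraries and 17432 to 48073 in monocyte libraries, and those of 5 monocyte markers were 1385 to 3732 and 49910 to 241517. Genes listed as markers of other cells also had counts, which do not show by themselves that such cells were present. The sum of 11 neutrophil and precursor genes was 1546 to 3056 in eYFP+ macrophages, 9293 to 48702 in eYFP- macrophages, 230144 to 351751 in Ly6Chi and 120788 to 229999 in Ly6Clo monocytes, with no marker at 0 throughout a group. Its highest single gene in the monocyte groups was S100a8, at up to 111535 in Ly6Chi and 72427 in Ly6Clo. Sums of 8 lymphocyte genes stayed at 15.8 to 924 normalized counts, and those of 7 stromal and bone genes ran from 447 to 10399, the highest in eYFP- macrophages. The highest gene of the stromal list was Pecam1 in Ly6Clo monocytes (up to 7266) and in eYFP+ macrophages (up to 3760). Whether the sorted cells made these transcripts themselves was not tested, nor was the part of other cells in the differences below. In bulk samples fewer cells of a type and less RNA per cell cannot be told apart. A pair of libraries stood apart from their groups in transcripts rich in G and C: the median log2 ratio to the group over 2587 genes of at least 54.8% GC was -1.06 for the second Ly6Clo library and -0.58 for the first eYFP+ library (replicates 2 and 1). For some of the differences that change by much without them, both values are given.

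Eno3 had the widest range of the 10 genes. Its normalized counts, which are counts divided by the library's DESeq2 size factor, were 150, 261 and 185 in eYFP+ macrophages, 339, 318 and 321 in eYFP- macrophages, 822, 714 and 446 in Ly6Chi monocytes and 27716, 18492 and 25614 in Ly6Clo monocytes. The 3 Ly6Clo libraries lay far above the 9 others, and no group overlapped another. Eno3 was 36.2-fold lower in Ly6Chi than in Ly6Clo monocytes (log2 fold change -5.18 ± 0.33 SE, DESeq2 adjusted p = 1.04e-51, edgeR adjusted p = 2.38e-05), and the log2 fold change was -5.33 without Ly6Clo replicate 2. Ly6Chi monocytes in turn exceeded eYFP- macrophages by 2.03-fold (adjusted p = 0.0116). eYFP- macrophages did not differ from eYFP+ macrophages beyond the threshold (eYFP+ minus eYFP- -0.71 ± 0.34 SE, DESeq2 adjusted p = 0.471), although their libraries did not overlap.

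**Figure D1:**
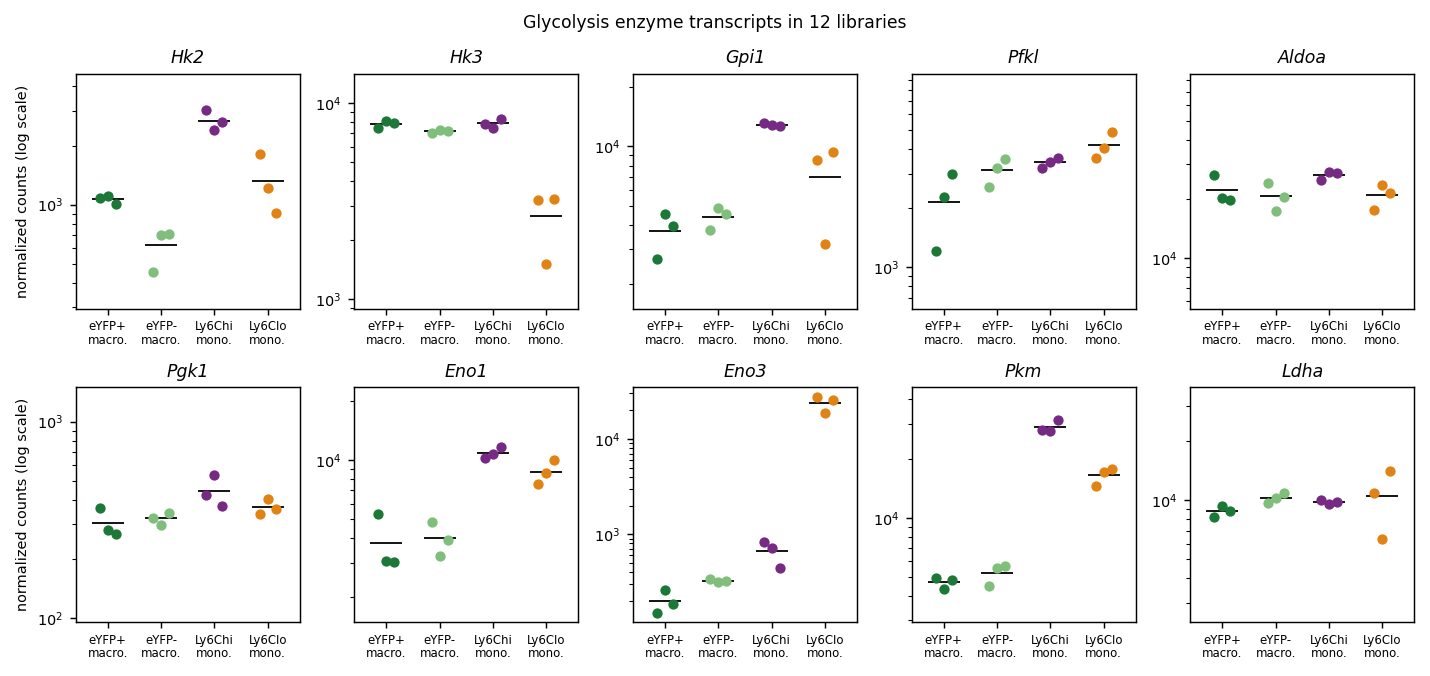
Normalized counts (log scale) of the 10 glycolysis genes in the 12 libraries, with a point per library in replicate order and a line at the group mean. Each panel has its own range, and Eno3 in Ly6Clo monocytes reached 18492 to 27716 while the other libraries held 150 to 822.

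Since Eno3 is known from muscle, 8 muscle genes were read in the same libraries. Their summed normalized counts were 50.8 to 236 in Ly6Clo and 149 to 178 in Ly6Chi monocytes. Myl1 and Tnnc2 were at 0 in every Ly6Clo library, Acta1 and Tnnc2 in every Ly6Chi library, and the highest single value in Ly6Clo was 138 for Mylpf, a myosin light chain. The sums of the monocyte groups overlapped, those of Eno3 did not, and the part of muscle RNA in the Eno3 values was not tested.

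Set against the other enolases on the length-scaled TPM scale, Eno3 was the leading enolase transcript in Ly6Clo monocytes only among these 4 groups. Its TPM was 910, 542 and 787 in Ly6Clo libraries, while that of Eno1 was 192, 193 and 235. In the 9 other libraries Eno3 ran from 4.44 to 25.3 TPM and Eno1 from 79.0 to 277 TPM. Eno3 made up 77.7% ± 4.5 (SD, n = 3) of enolase TPM in Ly6Clo monocytes, 7.36% ± 2.39 in Ly6Chi monocytes, 9.69% ± 1.42 in eYFP- and 6.96% ± 3.24 in eYFP+ macrophages. Eno2 had at most 1.29 TPM in any library.

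The Eno1 value is a lower bound, because only unambiguous read pairs were counted. Of the 50-base stretches of Eno1, 72.2% also occur in other genes, chiefly in its near-identical copy Eno1b, whereas none of the stretches of Eno3 do. The row of Eno1b held 0.494 to 0.551 of the counts of Eno1 in each library. With Eno1b added to Eno1, an alternative chosen after seeing the data, the share of Eno3 in Ly6Clo monocytes was 68.8%, and with the exon lengths of GENCODE it was 89.2%. The GENCODE lengths also raised the share in the 3 other groups, to 14.9% to 20.3%. Adding Eno1b lowered it to 4.69% in Ly6Chi monocytes and to 6.32% in eYFP- macrophages. Eno3 remained the larger part of enolase TPM in Ly6Clo monocytes under both.

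**Figure D2:**
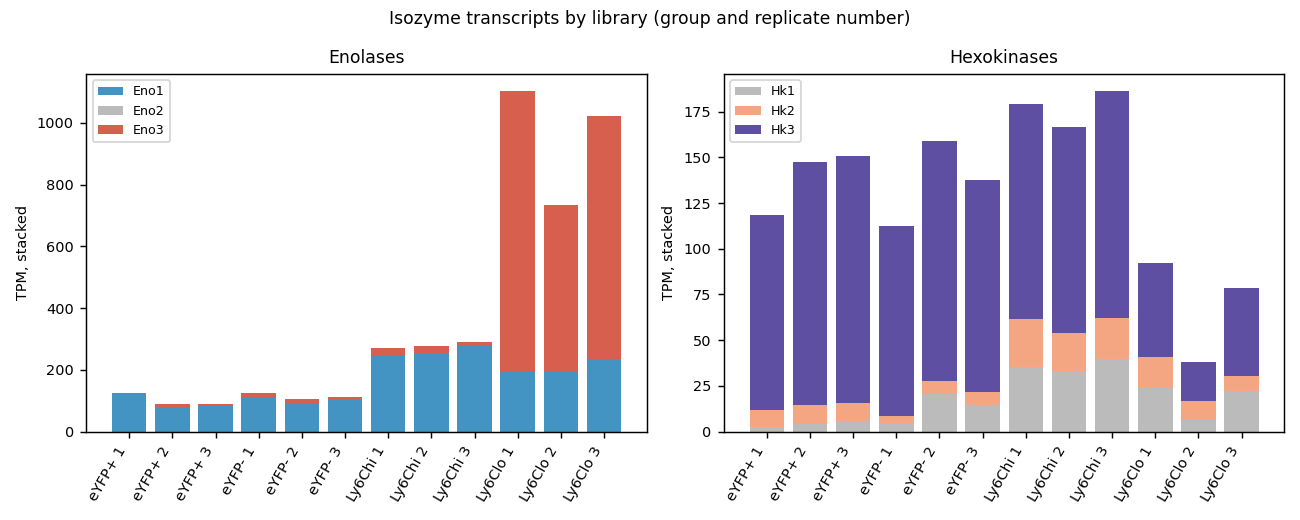
Stacked TPM (linear axis from 0) of the enolase genes Eno1, Eno2 and Eno3 (left) and of the hexokinase genes Hk1, Hk2 and Hk3 (right), with a bar per library. Eno3 fills most of the enolase bars of Ly6Clo monocytes (542 to 910 TPM), and Hk3 is the largest hexokinase segment in each library.

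Eno1 itself followed another pattern. Its normalized counts were 5277, 3044 and 3009 in eYFP+ macrophages, 4809, 3257 and 3922 in eYFP- macrophages, 10276, 10701 and 11646 in Ly6Chi and 7560, 8553 and 9938 in Ly6Clo monocytes. All monocyte libraries lay above all macrophage libraries. Eno1 was 2.50-fold lower in macrophages than in monocytes (log2 fold change -1.32 ± 0.22 SE, DESeq2 adjusted p = 8.66e-09), and the monocyte groups did not differ beyond the threshold (0.32 ± 0.30 SE, adjusted p = 0.602).

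Promoter sequences are shown for Eno3, which had the largest difference between groups, and for Hk2 and Pkm, which were also lower in macrophages and hold the motif searched here. Each runs from 250 bases before to 50 after a transcript start in the RefSeq table (build GRCm38.p6, another build than that of the counts), and capitals mark ACGTG or its reverse complement CACGT. Hypoxia-inducible factors bind an element with this core, which also overlaps the E-box CACGTG. The table held a window for each of the 10 genes.
Eno3, chr11:70656926-70657225, + strand: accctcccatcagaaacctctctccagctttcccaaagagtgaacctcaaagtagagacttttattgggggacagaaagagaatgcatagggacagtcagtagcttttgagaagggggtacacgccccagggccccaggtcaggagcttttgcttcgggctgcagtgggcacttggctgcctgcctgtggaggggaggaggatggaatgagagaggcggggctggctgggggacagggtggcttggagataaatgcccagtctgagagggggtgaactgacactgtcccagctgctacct
Hk2, chr6:82774405-82774704, - strand: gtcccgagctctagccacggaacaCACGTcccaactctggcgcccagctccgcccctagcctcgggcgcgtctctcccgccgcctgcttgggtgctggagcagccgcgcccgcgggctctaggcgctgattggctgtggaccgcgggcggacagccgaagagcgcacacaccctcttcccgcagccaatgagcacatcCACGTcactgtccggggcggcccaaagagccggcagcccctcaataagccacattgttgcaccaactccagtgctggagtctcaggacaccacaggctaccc
Pkm, second start, chr9:59656977-59657276, + strand: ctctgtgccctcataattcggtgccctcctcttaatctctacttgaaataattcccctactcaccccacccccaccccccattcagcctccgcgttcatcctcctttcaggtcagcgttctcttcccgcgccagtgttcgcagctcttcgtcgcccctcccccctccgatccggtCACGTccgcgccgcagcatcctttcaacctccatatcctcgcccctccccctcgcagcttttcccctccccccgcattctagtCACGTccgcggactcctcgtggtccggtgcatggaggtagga

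The 5 letters occurred, on either strand, in a window of 6 of the 10 genes (Hk2, Hk3, Aldoa, Pgk1, Pkm and Ldha), against 21.8% of 27025 genes and 19.6% of 32851 windows in the table. Genes with several starts have several windows, and 7 of the 16 member windows held a match. The Aldoa windows with a match overlap and hold the same site. The first of 2 Ldha windows held 5 matches over both strands, 4 of which are the strands of 2 E-boxes, and the second held none. The window at the first Pkm start held none either. Eno3, Eno1, Gpi1 and Pfkl had no match in these windows. A match is a description of letters only.

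The hexokinases differed from each other. Hk3, the myeloid-rich low-Km isozyme, had 7441, 8139 and 7890 normalized counts in eYFP+ macrophages, 7020, 7320 and 7178 in eYFP- macrophages, 7846, 7491 and 8290 in Ly6Chi and 3225, 1522 and 3257 in Ly6Clo monocytes. Ly6Clo monocytes were low, and the 3 other groups lay close together. Hk3 was 2.95-fold higher in Ly6Chi than in Ly6Clo monocytes (log2 fold change 1.56 ± 0.31 SE, DESeq2 adjusted p = 2.29e-05), and 1.28 without Ly6Clo replicate 2, its lowest library. It was also higher in eYFP+ (2.93-fold, adjusted p = 5.95e-06) and eYFP- macrophages (2.69-fold, adjusted p = 4.14e-05) than in Ly6Clo monocytes. Neither macrophage group differed from Ly6Chi monocytes beyond the threshold (adjusted p = 0.989 and 0.816).

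Hk2, the inducible isozyme that binds mitochondria, had 1078, 1112 and 1005 normalized counts in eYFP+ macrophages, 452, 702 and 711 in eYFP- macrophages, 3026, 2389 and 2624 in Ly6Chi and 1816, 1213 and 911 in Ly6Clo monocytes. It was highest in Ly6Chi monocytes, and Ly6Clo libraries overlapped those of eYFP+ macrophages. Hk2 was 2.31-fold lower in macrophages than in monocytes (log2 fold change -1.21 ± 0.23 SE, DESeq2 adjusted p = 1.16e-06). Between Ly6Chi and Ly6Clo monocytes it was called by DESeq2 (1.03 ± 0.32 SE, adjusted p = 0.0219) and not by edgeR (adjusted p = 0.0605), and the call was lost with the GC correction (0.86, adjusted p = 0.0701), without Ly6Clo replicate 3 and without each Ly6Chi library (adjusted p from 0.0608 to 0.149), in the fit of the 6 monocyte libraries (adjusted p = 0.135) and in limma on TPM (adjusted p from 0.0588 to 0.15).

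In TPM, Hk3 made up 90.0% ± 0.3 (SD, n = 3) of hexokinase transcripts in eYFP+ macrophages, 86.5% ± 5.3 in eYFP- macrophages, 66.6% ± 1.0 in Ly6Chi and 58.0% ± 3.2 in Ly6Clo monocytes. Hk1, the widely expressed isozyme, held 2.82% ± 0.81 in eYFP+ macrophages, 9.12% ± 4.62 in eYFP- macrophages, 20.2% ± 0.8 in Ly6Chi and 23.7% ± 6.0 in Ly6Clo monocytes. With GENCODE exon lengths the share of Hk1 was 1.63% in eYFP+ macrophages, 5.47% in eYFP- macrophages and 12.6% in Ly6Chi monocytes, and it was highest in Ly6Clo monocytes again. The sum of the 3 genes ranged from 38.2 TPM in Ly6Clo replicate 2 to 186 TPM in Ly6Chi replicate 3.

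The next 4 enzymes of the pathway showed smaller differences or larger spread. Gpi1, which interconverts glucose and fructose 6-phosphate, had 2667, 4541 and 3952 normalized counts in eYFP+ macrophages, 3760, 4841 and 4506 in eYFP- macrophages, 13112, 12898 and 12721 in Ly6Chi and 8543, 3181 and 9361 in Ly6Clo monocytes. Ly6Chi libraries were highest and close together, while Ly6Clo replicate 2 fell among the macrophage values. Gpi1 was 2.36-fold lower in macrophages than in monocytes (log2 fold change -1.24 ± 0.28 SE, DESeq2 adjusted p = 7.54e-05). The difference between Ly6Chi and Ly6Clo monocytes did not pass (0.88 ± 0.40 SE, adjusted p = 0.172), and was 0.53 (adjusted p = 0.0262) when Ly6Clo replicate 2 and eYFP+ replicate 1 were both left out.

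Pfkl, the liver-type phosphofructokinase, had 1216, 2292 and 2974 normalized counts in eYFP+ macrophages, 2578, 3200 and 3567 in eYFP- macrophages, 3220, 3444 and 3597 in Ly6Chi and 3619, 4058 and 4893 in Ly6Clo monocytes. Its lowest library was eYFP+ replicate 1, and Ly6Clo libraries lay above all others. Only eYFP+ macrophages against Ly6Clo monocytes passed among the 6 pairs of groups (1.94-fold lower, adjusted p = 0.0248). For macrophages against monocytes the log2 fold change was -0.55 ± 0.24 SE (adjusted p = 0.0661), a value called in 8 of the alternatives, among them the GC correction and the fit without Ly6Clo replicate 2.

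Aldoa, the aldolase of most tissues, was the most abundant of the 10 genes per length in macrophages, at 649 to 791 TPM, and it reached 776 to 855 TPM in Ly6Chi and 584 to 698 TPM in Ly6Clo monocytes. None of its 6 pairwise contrasts passed, and the 95% interval for macrophages minus monocytes ran from -0.48 to 0.20 on the log2 scale. Aldoa made up at least 98.9% of aldolase TPM in each library.

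Pgk1, the kinase that makes the first ATP of the pathway, ranged from 268 to 532 normalized counts over the 12 libraries, and its macrophage and monocyte values overlapped. None of its 6 pairwise contrasts passed, and macrophages minus monocytes gave -0.36 ± 0.18 SE (DESeq2 adjusted p = 0.106). That value was called with Ly6Clo replicate 2 and eYFP+ replicate 1 both left out (-0.44, adjusted p = 0.0238). Its level of 8.08 to 14.1 TPM is understated, since 68.0% of its 50-base stretches also occur in other genes, Pgk1-rs7 above all.

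Pkm, pyruvate kinase, had the second largest difference. Its normalized counts were 4939, 4333 and 4801 in eYFP+ macrophages, 4502, 5558 and 5701 in eYFP- macrophages, 27976, 27648 and 31358 in Ly6Chi and 14476, 17078 and 17686 in Ly6Clo monocytes. The monocyte groups were separate from each other and from the macrophage groups, which overlapped. Pkm was 4.39-fold lower in macrophages than in monocytes (log2 fold change -2.14 ± 0.14 SE, DESeq2 adjusted p = 4.56e-48, edgeR adjusted p = 3.85e-07). It was 1.77-fold higher in Ly6Chi than in Ly6Clo monocytes (0.82 ± 0.20 SE, adjusted p = 0.00153), a call that was lost with the GC correction (0.36, adjusted p = 0.618) and in a fit of the 6 monocyte libraries alone (0.84, adjusted p = 0.157). The transcript of Pkm is 57.7% G and C, and 34.4% of its 50-base stretches occur in other genes, so its level is understated as well.

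Ldha, the muscle-type lactate dehydrogenase subunit, had 8241, 9330 and 8844 normalized counts in eYFP+ macrophages, 9688, 10265 and 10901 in eYFP- macrophages, 10028, 9597 and 9759 in Ly6Chi and 10840, 6360 and 14148 in Ly6Clo monocytes. The Ly6Clo libraries spanned the values of all other groups. None of its 6 pairwise contrasts passed, and the interval for macrophages minus monocytes was -0.51 to 0.33 on the log2 scale. Ldhb, the heart-type subunit, made up 17.0% ± 2.3 (SD, n = 3) of lactate dehydrogenase TPM in Ly6Chi monocytes, 6.33% ± 6.64 in Ly6Clo monocytes (2.50% without replicate 2, whose share was 14%), 2.85% ± 0.51 in eYFP- and 2.95% ± 1.30 in eYFP+ macrophages.

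To compare both macrophage groups with both monocyte groups, the fit took the mean of the log2 differences. Of the 10 genes, 5 were lower in macrophages (Hk2, Gpi1, Eno1, Eno3 and Pkm), 1 was higher (Hk3, 0.71 ± 0.22 SE, DESeq2 adjusted p = 0.00455) and 4 were not called. Among all 22028 genes tested, 36% were called, 20.7% higher and 15.3% lower. The median log2 fold change of the 10 genes was -0.88, and that of all genes tested 0.08. The fold change of Eno3 in this comparison (-3.97 ± 0.24 SE, adjusted p = 2.13e-61) was carried mostly by Ly6Clo monocytes, as the values by library show. Gpi1 was not called against Ly6Clo monocytes in eYFP+ or eYFP- macrophages (DESeq2 adjusted p = 0.076 and 0.210). Hk2 was not called in eYFP+ macrophages against Ly6Clo monocytes (adjusted p = 0.547), and Hk3 was not called against Ly6Chi monocytes. edgeR called 6 of the 10 as well, 1 higher and 5 lower. The summed TPM of the 10 genes was 1403 to 1508 in macrophages, 2282 to 2429 in Ly6Chi and 2057 to 2696 in Ly6Clo monocytes.

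**Figure D3:**
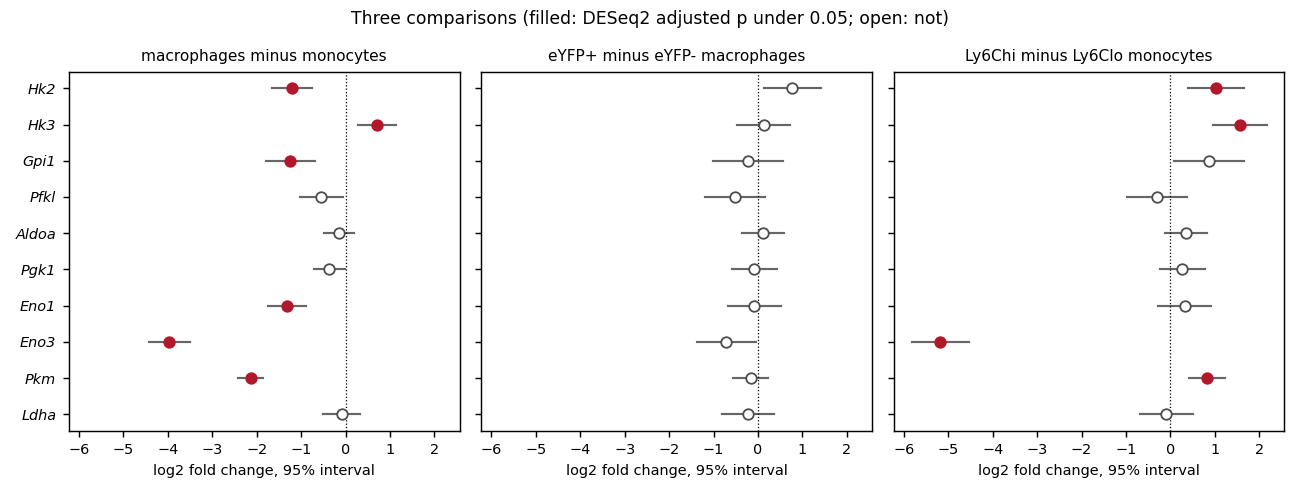
Log2 fold changes with 95% intervals of the 10 glycolysis genes in 3 comparisons, filled where the DESeq2 adjusted p was under 0.05. Macrophages minus monocytes has 6 filled points, eYFP+ minus eYFP- macrophages none, and Ly6Chi minus Ly6Clo monocytes 4, with Eno3 at -5.18.

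To ask whether the enzymes differ with macrophage origin, eYFP+ were compared with eYFP- macrophages. None of the 10 genes was called by DESeq2 (2.07% of 21195 genes were) or by edgeR, and 2 had an unadjusted p under 0.05 in DESeq2: Eno3 as above and Hk2 (0.78 ± 0.32 SE, adjusted p = 0.321). The 8 other intervals reached from -1.20 at the lowest (Pfkl) to 0.73 at the highest (Hk3) on the log2 scale. The median log2 fold change of the 10 genes was -0.12, against 0.05 over all genes tested.

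Between the monocyte groups, 3 of the 10 genes were higher in Ly6Chi (Hk2, Hk3 and Pkm), 1 was lower (Eno3) and 6 were not called. Of 21195 genes tested, 8.82% were called, 3.74% higher and 5.08% lower. The median log2 fold change was 0.33 over the 10 genes and 0.01 over all genes. Without Ly6Clo replicate 2 the log2 fold changes of Hk2, Hk3, Pkm and Eno3 were 0.97, 1.28, 0.85 and -5.33, all called. Only Hk3 and Eno3 were called with the GC correction and in the fit of the 6 monocyte libraries, and edgeR called 3 of the 4, without Hk2.

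The pairwise contrasts between macrophages and monocytes share their samples with each other and with the comparisons above. eYFP+ macrophages against Ly6Chi monocytes gave 5 lower and 0 higher of the 10 genes (28.7% of all genes were called), and eYFP- macrophages against Ly6Chi monocytes likewise gave 5 lower and 0 higher (25.5% of all genes). Against Ly6Clo monocytes, eYFP+ macrophages gave 4 lower and 1 higher (26.1% of all genes), and eYFP- macrophages 4 lower and 1 higher (26.8% of all genes). The higher gene was Hk3 in each case. Over the 6 pairs of groups, 24 of the 60 tests passed.

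In the order of mean levels, Eno3 ran from Ly6Clo over Ly6Chi monocytes and eYFP- to eYFP+ macrophages, and only the macrophage neighbours did not differ. Pkm ran from Ly6Chi over Ly6Clo monocytes and eYFP- to eYFP+ macrophages, with the same pair not differing. For Eno1, which has the order of Pkm, only the step from Ly6Clo monocytes to eYFP- macrophages passed (adjusted p = 0.00169). For Hk3 only the step from eYFP- macrophages down to Ly6Clo monocytes passed, and for Hk2 only that from Ly6Chi to Ly6Clo monocytes. No neighbours differed beyond the threshold in Gpi1, Pfkl, Aldoa, Pgk1 and Ldha.

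Other enzymes of the pathway were read from a list of 21 genes, of which 18 could be tested. Between macrophages and monocytes, 5 were higher, 6 lower and 7 not called, with a median log2 fold change of -0.05. Over the 5 pathway lists 36 of 54 tested genes (66.7%) were called in this comparison, against 36% of all genes (20.7% higher and 15.3% lower). Higher in macrophages was Bpgm, which makes 2,3-bisphosphoglycerate in red cells (4.86-fold, DESeq2 adjusted p = 2.43e-19). Lower in macrophages were Pfkp, the platelet-type phosphofructokinase (2.61-fold, adjusted p = 2.93e-15), Pgam1, phosphoglycerate mutase (2.00-fold, adjusted p = 1.68e-08), and Eno1b (2.50-fold, adjusted p = 5.70e-08). The 9 erythroid markers were all higher in macrophages too, with a summed level of 117255 to 511849 normalized counts there and 5607 to 18930 in monocytes, and their part in the Bpgm value was not tested. Pfkp made up 54.7% ± 1.7 (SD, n = 3) of phosphofructokinase TPM in Ly6Chi monocytes and 33.4% ± 4.3 in eYFP- macrophages, where Pfkl held 38.8% ± 0.7 and 54.1% ± 5.3. In eYFP+ macrophages Pfkp held 40.7% ± 11.1, with 53.5% in replicate 1, where it exceeded Pfkl (35.9%), and 32.9% and 35.9% in the other libraries. With GENCODE exon lengths the order in Ly6Chi monocytes turned, to 38.3% for Pfkp and 49.0% for Pfkl, as it did in Ly6Clo monocytes (from 49.4% and 47.7% to 34.4% and 60.1%). Under these lengths Pfkp held 26.45% in eYFP+ and 20.2% in eYFP- macrophages.

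All 9 transport genes were called between macrophages and monocytes, 5 higher and 4 lower, with a median of 0.73, where 36% of all genes were called. Slc2a6, a glucose transporter of the lysosome, had 2.86 to 86.2 normalized counts in macrophages and 3155 to 11687 in monocytes, 164-fold apart (DESeq2 adjusted p = 6.16e-50). Slc16a3, the lactate exporter MCT4, had 47.4 to 203 in macrophages and 5696 to 6050 in Ly6Chi monocytes, and 16884, 914 and 15707 in Ly6Clo monocytes, where the second library lay far below the other two. It was 79.4-fold lower in macrophages (adjusted p = 1.07e-33). Slc2a1, the widely expressed glucose transporter, was 3.58-fold lower in macrophages (adjusted p = 4.53e-13). Slc16a1, the lactate carrier MCT1, went the other way, 8.11-fold higher in macrophages (adjusted p = 1.73e-43).

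Among 11 regulators of the pathway, 3 were higher and 2 lower in macrophages, with a median of 0.11, a count near the share over all genes (36%). Of the kinases that make fructose 2,6-bisphosphate, Pfkfb4 was 3.34-fold (DESeq2 adjusted p = 4.06e-06) and Pfkfb3 3.19-fold lower (adjusted p = 0.00385), and Pfkfb1 2.73-fold higher (adjusted p = 0.00878). Ly6Clo libraries ran from 2409 to 11817 normalized counts for Pfkfb4 and from 706 to 7848 for Pfkfb3. The lowest of them fell within the macrophage values. Pfkfb2 had means of 229 in eYFP+ and 153 in eYFP- macrophages, 152 in Ly6Chi and 65.5 in Ly6Clo monocytes. The transcription factor Myc was 4.48-fold higher in macrophages (adjusted p = 5.33e-17), with means of 2274 normalized counts in eYFP+ and 4996 in eYFP- macrophages, 336 in Ly6Chi and 1686 in Ly6Clo monocytes. Its eYFP+ and Ly6Clo libraries overlapped, and between these groups it was not called. Hif1a, the oxygen-regulated activator of glycolysis genes, was not called in this pooled comparison (adjusted p = 0.513). Its means were 4888 normalized counts in eYFP+ and 3581 in eYFP- macrophages, 8355 in Ly6Chi and 3393 in Ly6Clo monocytes. The Ly6Chi libraries (6939 to 10625) lay above all others, which reached 6918, but it was not called between the monocyte groups.

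Of 7 pentose phosphate enzymes, which draw glucose 6-phosphate into NADPH and ribose production, 6 were lower in macrophages and 0 higher, with a median of -0.83, while 15.3% of all genes were lower. More of these genes were lower against Ly6Chi monocytes, 6 of 7 in eYFP+ and 5 of 7 in eYFP- macrophages, than against Ly6Clo monocytes, 2 and 1 of 7. Among all genes tested, 2518 of 20363 (eYFP+) and 2286 of 22028 (eYFP-) were lower against Ly6Chi monocytes. Against Ly6Clo monocytes these were 2514 of 22028 and 2342 of 21195. For Taldo1 the means were 16824 normalized counts in eYFP+ and 19377 in eYFP- macrophages, 32902 in Ly6Chi and 19921 in Ly6Clo monocytes. The genes lower against both monocyte groups pooled included Rpe (1.87-fold, DESeq2 adjusted p = 5.55e-09), Tkt (1.88-fold, adjusted p = 0.000523), the entry enzyme G6pdx (1.78-fold, adjusted p = 0.00074) and Taldo1 (1.42-fold, adjusted p = 0.00361). Of 9 tested genes of gluconeogenesis and glycogen, 3 were higher and 2 lower (20.7% and 15.3% of all genes), among them the glycogen phosphorylases Pygb (3.16-fold higher, adjusted p = 0.000197) and Pygl (2.46-fold lower, adjusted p = 0.000856), Pcx (14.2-fold higher, adjusted p = 0.000703) and G6pc3 (1.70-fold higher, adjusted p = 0.00159). The fold change of Pcx rests on low monocyte values, 1.21 to 80.6 normalized counts in Ly6Chi and 0 to 142 in Ly6Clo. Its macrophage values were 332 to 841 in eYFP+ and 622 to 926 in eYFP- libraries.

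**Figure D4:**
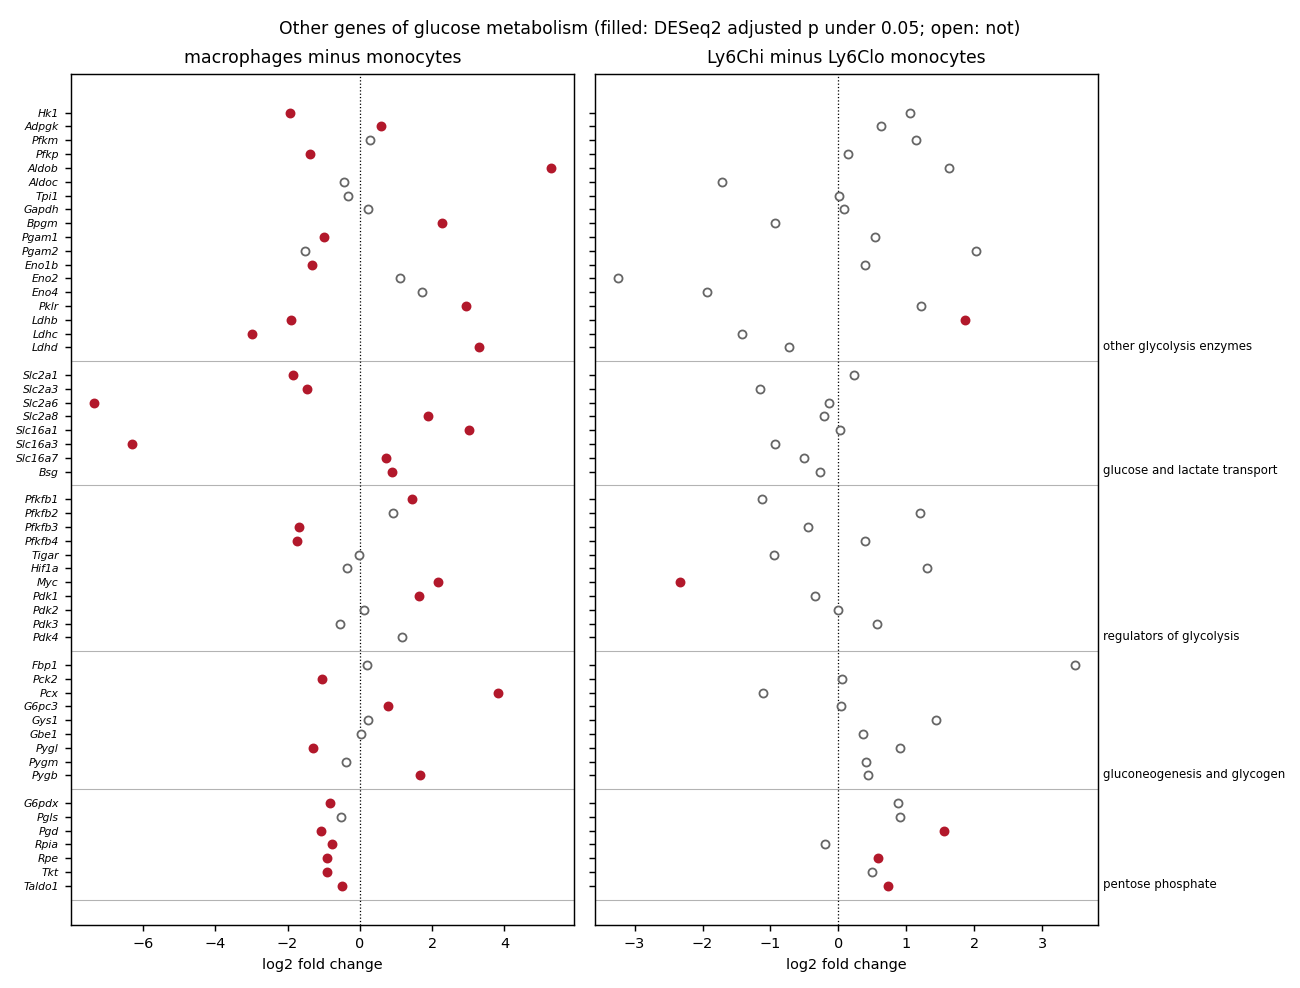
Log2 fold changes of other genes of glucose metabolism, by list, in macrophages minus monocytes (left) and Ly6Chi minus Ly6Clo monocytes (right), filled where the DESeq2 adjusted p was under 0.05. The panels have different ranges, and genes at 0 in all libraries of a side are left out. Slc2a6 and Slc16a3 lie far to the left in the left panel, at -7.35 and -6.31.

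Over the 5 lists, 2 of 54 tested genes (3.70%) were called between the macrophage groups, against 2.07% of all genes, and 5 of 54 (9.26%) between the monocyte groups, against 8.82% of all genes. In eYFP+ against eYFP- macrophages, Slc2a3, a high-affinity glucose transporter, was called by DESeq2, with 109, 98.2 and 28.1 normalized counts in eYFP+ and 232, 485 and 403 in eYFP- libraries (4.78-fold lower, adjusted p = 0.00141), but not by edgeR (adjusted p = 0.105). Pdk4, a kinase that switches off pyruvate dehydrogenase, was at 0 in all eYFP+ libraries and had 36.5, 6.69 and 4.18 normalized counts in eYFP- libraries (DESeq2 adjusted p = 0.0398), a level too low for the edgeR filter, and it was not called without eYFP+ replicate 1 (adjusted p = 0.0877). On simulated data of this comparison DESeq2 made more false calls than its threshold allows. Erythroid markers summed to 277120 to 511849 normalized counts in eYFP- and 117255 to 217814 in eYFP+ libraries (1 of 9 called by DESeq2 and 0 by edgeR), and of the neutrophil markers 4 of 11 were lower in eYFP+ libraries by DESeq2 and 1 by edgeR, and their part was not tested. With eYFP+ replicate 1 and Ly6Clo replicate 2 left out, 4 of the 18 other glycolysis enzymes, 2 transport genes and 2 regulators were lower and 1 regulator was higher in eYFP+ macrophages, and 4.72% of all genes were called (DESeq2 only).

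Between Ly6Chi and Ly6Clo monocytes, Ldhb was 3.62-fold higher in Ly6Chi (DESeq2 adjusted p = 0.00523) and Myc 5.02-fold lower (adjusted p = 4.95e-09), and of the pentose phosphate enzymes Pgd (2.94-fold, adjusted p = 0.0202), Taldo1 (1.65-fold, adjusted p = 0.0127) and Rpe (log2 fold change 0.59, adjusted p = 0.0469) were higher in Ly6Chi. edgeR kept Ldhb, Myc and Taldo1 of these. The Ly6Clo values of Ldhb were 229, 744 and 223 normalized counts, and without the high second library its difference was 6.37-fold (adjusted p = 3.43e-11). With the GC correction Ldhb (2.88-fold, adjusted p = 0.0661) and Taldo1 (1.40-fold, adjusted p = 0.237) were not called, and 2 of the 18 other glycolysis enzymes were lower, against 5.98% of all genes in that fit. Without Ly6Clo replicate 2, Pgd was 2.18-fold higher in Ly6Chi (DESeq2 adjusted p = 0.000216) and Rpe was not called (adjusted p = 0.0623). None of the 9 transport genes was called by DESeq2 or edgeR, and 2 had an unadjusted p under 0.05 in DESeq2. With Ly6Clo replicate 2 and eYFP+ replicate 1 left out, 3 transport genes were lower in Ly6Chi monocytes and 5 of the 7 pentose phosphate genes were higher, in a fit that called 13.2% of all genes.

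Genes with a pattern like that of Eno3 were ranked by Pearson's r over the 12 libraries, on log2(normalized count + 1), among 10983 named genes with a mean of at least 50 normalized counts. The first 5 were Mdm1, a microtubule-binding protein (r = 0.972), Coq10b, which binds coenzyme Q (r = 0.965), Cd300ld, a myeloid surface receptor (r = 0.963), Htra2, a mitochondrial protease (r = 0.962), and Dnah12, a dynein heavy chain (r = 0.958). The 12 points form 4 groups, so r mostly follows the step to Ly6Clo monocytes. Cd300ld had 26208 to 65487 normalized counts in Ly6Clo and 2707 to 3797 in Ly6Chi monocytes, and Mdm1 3940 to 4704 and 685 to 834. Ranked on log2(TPM + 1), the first 5 shared 2 genes with these, Mdm1 and Dnah12.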

How the data were processed

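Full-length cDNA amplified from polyadenylated RNA of sorted cells was sequenced in pairs. As the study's methods state, reads were trimmed (Trimmomatic, Cutadapt), corrected (Rcorrector), freed of ribosomal RNA (SortMeRNA) and aligned to GRCm39 with Ensembl annotation (segemehl), and the authors deposited counts of unambiguous read pairs on exons (featureCounts). Strand use is not stated. Reads shared between near-identical genes are thus lost, and amplified reads are not independent molecules. The authors also deposited TPM, counts scaled by gene length and library sum. Their variance-stabilised table was not used. Submitters' processing notes add bcl2fastq 2.20.0.422.

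The 10 genes, the pathway lists and the marker lists were chosen with earlier results of these data known. Groups came from titles. Symbols (91.4% of identifiers matched), GC content and shared 50-base stretches came from GENCODE M21, another build, so the stretches approximate the authors' annotation. DESeq2 1.42.0 (R 4.3.3) fitted the 12 libraries at once with the group as factor. Wald tests were adjusted by Benjamini-Hochberg over all genes tested, with a threshold of 0.05 and unshrunken log2 fold changes (±SE, 95% intervals). Named genes are the 10 enzymes, up to 4 called genes with the lowest adjusted p per list and comparison, genes with isozyme shares, and the 5 most like Eno3. Hif1a, the motif and the additional values of named genes were chosen after values were seen. Alternatives were edgeR 4.0.16 (quasi-likelihood), limma 3.58.1 on log2(TPM + 1 or 0.1), scaling by TMM or by total counts, genes with 10 or more counts in 3 libraries, fits without independent filtering or without Cook's cutoff, a replicate block, a GC correction (each library divided by a smooth curve over GC), only the libraries of a contrast, and leaving out libraries. The fits were tested on simulated data of the eYFP+ and eYFP- comparison, where DESeq2 made more false calls than its threshold allows.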

Additional observations from a re-analysis of the deposited data

How the results depend on the processing

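The number of the 10 genes called stayed within 1.5 times the reported count under every alternative for macrophages against monocytes (6 to 8) and stayed at 0 for eYFP+ against eYFP- macrophages. For Ly6Chi against Ly6Clo monocytes it was 3 to 5 except in 3 fits with 2 calls, Hk3 and Eno3: the GC correction, the GC correction with the replicate block and a count minimum, and a fit of only the 6 monocyte libraries. The cause was not tested. Leaving out single libraries gave 6 to 7, 0 and 3 to 4 calls, and 22 to 28 of the 60 pairwise tests, the highest without Ly6Clo replicate 2. The log2 fold changes of the 10 genes gave 765 alternative values on the reported side of 0 and of the threshold, 14 weaker, 10 stronger and 21 of reversed sign.

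Every reversed value belongs to a difference that was not called. With the GC correction, alone and with the replicate block, Ly6Chi minus Ly6Clo turned to -0.12 and -0.10 for Aldoa and to -0.11 and -0.12 for Eno1, and eYFP+ minus eYFP- to 0.21 and 0.15 for Eno1 and to 0.0695 and 0.0805 for Pkm. For Aldoa, eYFP+ minus eYFP- turned to -0.000542 with total-count scaling and to -0.0528 without Ly6Clo replicate 2 and eYFP+ replicate 1. For Ldha, macrophages minus monocytes was 0.0481 with limma on log2(TPM + 1), 0.0484 with a pseudocount of 0.1 and 0.0481 with a TPM minimum. Over single libraries left out, eYFP+ minus eYFP- ran from -0.0441 to 0.23 for Aldoa, from -0.40 to 0.0763 for Eno1 and from -0.23 to 0.00146 for Pgk1, Ly6Chi minus Ly6Clo of Ldha from -0.35 to 0.19, and macrophages minus monocytes of Ldha from -0.27 to 0.0445.

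With the replicate block, 7, 0 and 4 of the 10 genes were called in the 3 comparisons and 24 of the 60 pairwise tests passed. Deviations of same-numbered libraries correlated at 0.165, 0.0455 and 0.00113 in macrophages and 0.0328, -0.0123 and 8.57e-05 in monocytes, so the block was kept as an alternative, and whether same-numbered libraries share a mouse is not stated. Differences of low-count genes and of genes with near-identical copies are limited by depth and by the counting of unambiguous pairs. Over all genes, DESeq2 called 439 for eYFP+ against eYFP- macrophages, and the alternatives ran from 64 (edgeR) to 1156 (replicate block). For Ly6Chi against Ly6Clo monocytes it called 1870 and edgeR 829. Total-count scaling moved the median of all genes from 0.05 to -0.06 for eYFP+ minus eYFP- macrophages and from 0.10 to -0.02 for eYFP+ macrophages minus Ly6Clo monocytes.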
